A study of Mus musculus with 9 samples.

Results

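Hearts of N-line mice, which carry a wild-type transgene of a membrane transport protein, were compared with control hearts. The comparison holds 6 of the 9 arrays of the series: the 3 labelled N-line and the 3 labelled control. All 6 were hybridised on one Illumina Mouse-6 slide, and their raw bead signals were normalized together. The other 3 arrays are of the K-line, which carries a constitutively active mutant of the same protein, and lie on a second slide. Every mouse was a 14-day-old FVB male per the labels, and the tissue was the heart. RNA was purified from frozen tissue and amplified from 100 ng into biotin-labelled copies. The labels name neither the promoter of the transgene, nor the number of founders, nor whether the controls were littermates. Nor do they say that every array is of a different mouse, and p-values here speak only for the scatter of these samples, some of which may be technical. On the slide the controls took the first 3 positions and the N-line samples the next 3, so position and genotype cannot be told apart.

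The heart of a young mouse is a mixture of muscle cells, fibroblasts, endothelium and other cells, and an array of the whole tissue reads their RNA together. Some of the genes that can change in such a tissue belong to known inducible programmes. Glucocorticoid hormones enter cells and act through a nuclear receptor that turns on genes such as Zbtb16, Mt1 and Cdkn1a. The tumour suppressor p53 turns on Cdkn1a and Gdf15 after damage, and metallothioneins are induced by zinc and other metals as well as by hormones. Spp1, the gene of osteopontin, a protein secreted into the matrix, is low in healthy heart muscle and is a known marker of injury and remodelling. In bulk tissue, fewer cells of a type and less RNA per cell cannot be told apart.

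The 6 arrays were alike in quality, and sex and tissue markers fitted the labels. Of 46657 probes, 17937 to 19021 passed a detection score of 0.95 on a given array (38.4% to 40.8%), and were then called detected, and the median number of beads per probe was 36 to 38. After normalization the N-line arrays correlated with each other at 0.992 to 0.993 across probes, the control arrays at 0.993 to 0.995, and N-line with control arrays at 0.989 to 0.993. Along the leading principal component (35.3% of variance) lay all 3 N-line arrays on one side and all 3 controls on the other side. The cardiomyocyte genes Myh6, Mybpc3 and Ryr2 were detected on all 6 arrays. Xist, which marks female tissue, was detected on none of the 6, while the Y-linked genes Kdm5d and Ddx3y were detected on all 6. Of other Y-linked genes, Eif2s3y was detected on 3 N-line and 2 control arrays, and Uty and Zfy1 on none.

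Of 18713 probes detected on at least 3 of the 6 arrays, 354 differed between N-line and control at an adjusted p under 0.05 (1.89%), 141 of them higher in N-line (0.753%) and 213 lower (1.14%). The groups did not overlap at 3753 probes (20.1%), among them all 354 called probes. Most differences were small: 39 called probes differed at least 2-fold, 10 higher and 29 lower, and 135 differed by less than 1.5-fold. The median size of a called difference was 0.64 on the log2 scale, against a median standard error (SE) of 0.10 over all tested probes. The number of calls rested on the full set of arrays. It was 59 without N-line replicate 4, 126 without N-line replicate 2 and 170 without N-line replicate 3, and it was 89, 127 and 155 without control replicates 1, 2 and 3. The same 53 probes were called in all 6 of these fits. All 354 kept their sign wherever they were tested, but their groups did not overlap, so leaving out 1 array could hardly reverse it. Only 97 of the called probes carry a gene name, for 91 genes (33 higher and 58 lower), since the array lists its own probe codes. The other 257 have no name here (107 higher and 150 lower), and their 2 largest falls were -2.50 for the probe scl26595.14.1_90-S and -2.13 for scl24866.28.1_30-S.

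**Figure D1:**
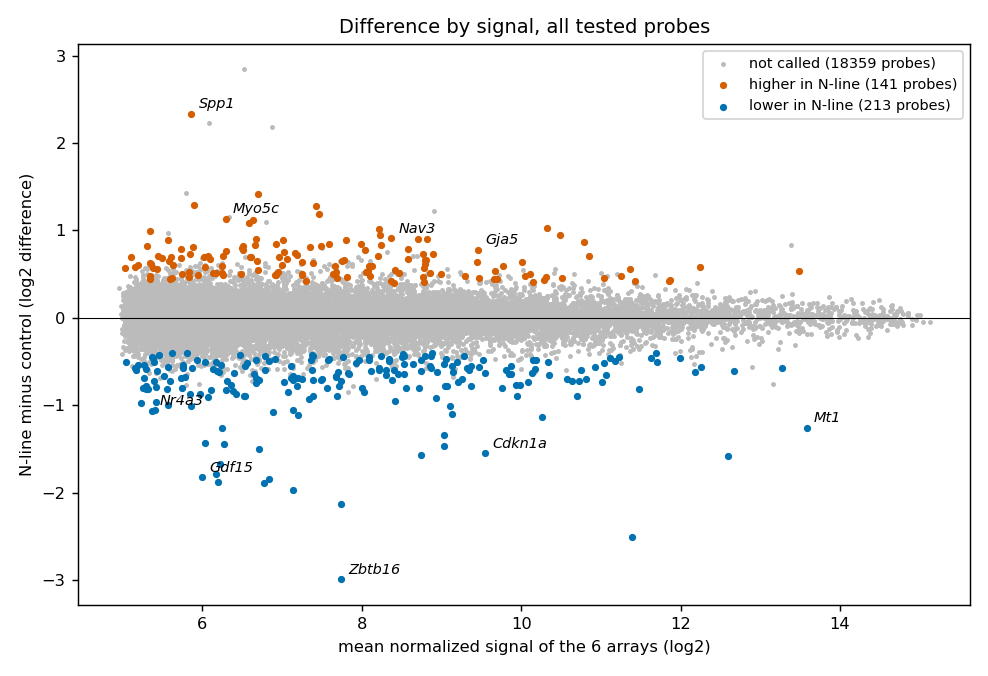
Difference of N-line minus control (log2, vertical axis) against the mean normalized signal of the 6 arrays (log2, horizontal axis) for the 18713 tested probes. Orange points are the 141 probes called higher in N-line, blue points the 213 called lower and grey points those not called; Zbtb16 lies lowest at -2.99, and Spp1 at 2.33 is the highest called point.

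The largest fall was that of Zbtb16, which encodes the zinc-finger transcription factor PLZF. Its normalized signal was 5.98, 6.40 and 6.37 on the N-line arrays, against 9.25, 9.33 and 9.14 on the control arrays. The groups lay more than 2 log2 units apart, and each group was tight (N-line 6.25 ± 0.23, control 9.24 ± 0.09, SD, n = 3 each). The difference was -2.99 (SE 0.12, adjusted p 6.04e-05 in limma), a 7.94-fold fall, and it was called in each fit that left out 1 array.

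Gdf15, a secreted cytokine of the TGF-beta family that cells release under stress, read 4.91, 5.15 and 5.19 in N-line hearts, against 6.96, 7.02 and 6.73 in control hearts. It was near the limit of detection in N-line, where 2 of 3 arrays detected it, and clearly above it in all 3 controls. The difference was -1.82 (SE 0.11, adjusted p 4.56e-04). Cdkn1a encodes p21, an inhibitor of cyclin-dependent kinases that halts the cell cycle. Its brighter probe read 8.65, 8.80 and 8.86 in N-line hearts, against 10.47, 10.29 and 10.19 in control hearts. A second probe of the gene gave nearly the same fall: -1.57 (SE 0.14, adjusted p 0.00206), beside -1.55 (SE 0.10, adjusted p 5.32e-04) for the brighter one. Mt1, a metal-binding metallothionein, was bright in every heart, with 12.97, 12.84 and 13.05 in N-line, against 14.38, 14.20 and 14.05 in control. It fell by 1.26 (SE 0.11, adjusted p 0.00191), 2.39-fold. Gdf15, Cdkn1a and Mt1 were also called whichever array was left out.

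Nr4a3, which encodes an orphan nuclear receptor of the immediate early class, was below detection on all 3 N-line arrays (4.86, 4.74 and 4.92) and detected on all 3 controls (5.95, 5.89 and 5.87). It was at least 1.78-fold lower in N-line, with a fitted difference of -1.06 (SE 0.09, adjusted p 0.00123). Its other probe fell as well (-0.97, SE 0.16, adjusted p 0.0236). Dct, an enzyme of melanin synthesis, was likewise undetected in N-line, with 4.83, 5.02 and 4.82, against 6.04, 6.15 and 5.63 in control hearts, at least 1.82-fold lower (adjusted p 0.0101). It is the only melanocyte marker of the list that the array names, so whether melanocytes differed between the groups was not tested. With any 1 control array left out, Nr4a3 and Dct are detected on only 2 arrays and were not tested, and Dct was also not called without N-line replicate 4.

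The next largest falls were spread over several functions. Rhobtb1 read 8.07, 7.95 and 7.80 in N-line hearts, against 9.04, 8.95 and 8.70 in control hearts (difference -0.96, SE 0.12, adjusted p 0.00793). Sphk1, the kinase that makes the lipid messenger sphingosine 1-phosphate, read 6.83, 6.64 and 6.47 in N-line, against 7.49, 7.54 and 7.46 in control, a difference of -0.85 (SE 0.11, adjusted p 0.00832). Plin4, a coat protein of lipid droplets, read 11.10, 11.03 and 11.10 in N-line, against 11.89, 11.95 and 11.82 in control (difference -0.81, SE 0.08, adjusted p 0.00406). None of these 3 genes overlapped between the groups. Rin1, an effector of Ras and Rab5, fell by 0.87, the transcription factor Rfx2 by 0.92, the ligand Desert hedgehog (Dhh) by 0.83 and the single-stranded DNA binding protein Nabp1 by 0.82. Lin7a, a scaffold protein of cell junctions, was lower by a fitted -0.81, a size set partly by background, since 1 of 3 N-line arrays detected it. Slc4a8, an exchanger that brings sodium and bicarbonate into cells in return for chloride, was undetected in N-line and detected on all 3 controls. It was at least 1.53-fold lower (adjusted p 0.00794). The probe passed the detection filter only through the control arrays and was not tested without any 1 of them. It was called without N-line replicate 2 or 3 but not without replicate 4, a weak check with N-line at background. Plin4, Rin1 and Sphk1 were called in all 6 fits with 1 array left out. Rhobtb1 lost its call without N-line replicate 4, and Dhh, Lin7a, Rfx2 and Nabp1 lost theirs without that array and without control replicate 1 at least.

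The largest rise among named genes was that of Spp1, the gene of osteopontin. It was detected on all 3 N-line arrays, at 6.43, 7.61 and 7.05, and on none of the controls, which read 4.69, 4.63 and 4.77. Its level was at least 3.76-fold higher in N-line, with a fitted difference of 2.33 (SE 0.25, adjusted p 0.00423). The N-line hearts differed among themselves (7.03 ± 0.59, SD, n = 3) far more than the controls did at background (4.70 ± 0.07, SD, n = 3). The probe passed the detection filter only through the N-line arrays. Without any 1 of them only 2 arrays detect it, so it was not tested there. It was called without each control array, but the controls lay at background, so these fits are a weak check.

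Osteopontin is also made in leukocytes, so their markers are given beside it. Of 8 tested macrophage and leukocyte markers none was called in either direction, with differences from -0.24 to 0.36. The summed signal of the 11 such markers on the array was 2035 to 2097 in N-line and 1927 to 1995 in control, and 10 of them were detected on at least 1 array, the exception being Itgam. These sums did not overlap between the groups. Their part in the rise of Spp1 was not tested. Lyz2, the lysozyme of macrophages, had 8.65, 8.90 and 8.72 in N-line, against 8.45, 8.19 and 8.63 in control (difference 0.33, adjusted p 0.264).

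The Bcl2a1 genes, which encode close relatives of the survival protein Bcl2 and are known from blood cells, were higher in N-line at all 3 measured copies. Bcl2a1b read 7.51, 7.62 and 7.49 in N-line, against 6.74, 6.89 and 6.75 in control (difference 0.75, SE 0.09, adjusted p 0.00748), and it was called whichever array was left out. Bcl2a1d rose by 0.80 (SE 0.10, adjusted p 0.00974) and Bcl2a1a by 0.81 (SE 0.13, adjusted p 0.0209). Bcl2a1d lost its call without N-line replicate 4 or control replicate 1, and Bcl2a1a kept its own only without N-line replicate 2. The copies are nearly identical, so their probes may read one another's transcripts and count as 1 observation rather than 3. Klra10, an inhibitory receptor of natural killer cells, was detected on all 3 N-line arrays, at 5.62, 5.997 and 5.90, and on none of the controls, at 4.995, 4.64 and 4.90, at least 1.65-fold higher (adjusted p 0.00993). Like Spp1, it passed the detection filter only through the N-line arrays and was not tested without any 1 of them. It was called without each control array, again a weak check with controls at background. Of the 8 lymphocyte and natural killer cell markers on the array, Cd8b1, Klra4, Klra9 and Il7r were detected on no array, and only Klra10 of the 4 tested was called. Their summed signal was 839 to 884 in N-line and 698 to 717 in control, and the brightest of the 4 tested, Satb1, differed by 0.31 (adjusted p 0.0978). These sums, which hold Klra10 itself, did not overlap either. Whether these cells were more numerous in N-line was not tested.

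Gja5, which encodes connexin 40 of atrial muscle, the conduction system and arterial endothelium, read 9.999, 9.86 and 9.69 in N-line hearts, against 8.98, 9.31 and 8.90 in control hearts. The groups did not overlap, and the difference was 0.78 (SE 0.13, adjusted p 0.0259), which was called only in the fit without control replicate 2 when 1 array was left out. None of the other 4 markers of atrial and conduction cells was called. The bright atrial light chain Myl7 had 13.54, 13.62 and 13.65 in N-line, against 13.55, 13.40 and 13.35 in control (difference 0.17, adjusted p 0.446). The summed signal of the 5 markers, all detected, was 13854 to 14545 in N-line and 11853 to 13325 in control, again without overlap. This sum holds Gja5 itself and the bright Myl7, whose groups overlapped. Beyond the leukocyte, lymphocyte and atrial lists, the sums also lay apart for nerve and glia and for thymus, higher in N-line. They lay apart as well for smooth muscle and pericytes, lower in N-line. The melanocyte list holds only Dct on the array, so its lower sum is the fall of that gene again. The sums of the remaining marker lists overlapped. The thymus list shares Satb1 with the lymphocyte list, and 2 of its 3 tested members lay below 0. Of the 7 nerve and glia markers on the array, 4 were detected on at least 1 array. Among single tested probes, 20.1% did not overlap between the groups either. Whether any of these cell types differed in number was not tested. The part of atrial tissue in the rise of Gja5 was not tested. Another membrane protein, the potassium channel Kcnk2, which responds to stretch, read 8.88, 8.90 and 8.96 in N-line, against 8.15, 8.24 and 8.33 in control (difference 0.68, SE 0.09, adjusted p 0.00917), and it lost its call only without N-line replicate 4.

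The rises that completed the 15 largest were of mixed function. Myo5c, a myosin motor that moves vesicles in epithelia, rose by 1.14, although its N-line arrays ranged from 6.45 to 7.26 and its control arrays from 5.38 to 5.98. The cytoskeletal protein gene Nav3 rose by 0.91 and Fam13c by 0.74. The synaptic vesicle protein Sv2a rose by 0.72, the cAMP-degrading enzyme Pde4b by 0.71, the zinc-finger gene Zfp579 by 0.66 and the adhesion molecule Vcam1, which binds leukocytes to endothelium, by 0.64, while Sned1 rose by 0.64 as well. Nav3 and Fam13c lost their calls only without N-line replicate 4. Myo5c, Sv2a, Pde4b and Vcam1 were each called in 1 of the 6 fits with an array left out, and Zfp579 and Sned1 in none. With median scaling Pde4b and Zfp579 were not called (adjusted p 0.0536 and 0.0512).

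**Figure D2:**
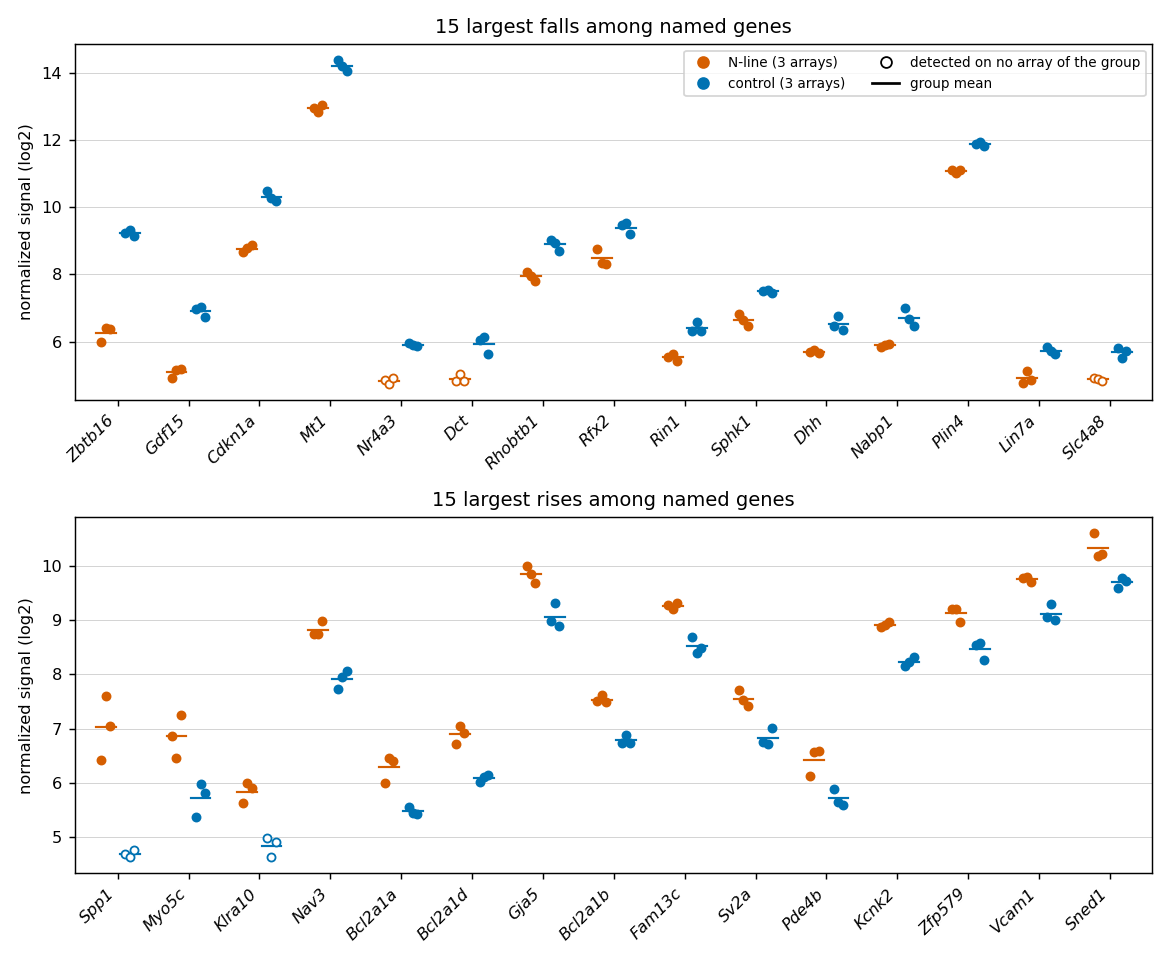
Normalized signal (log2, vertical axis) on each array for the 15 named genes with the largest falls (top) and the 15 with the largest rises (bottom), N-line in orange to the left of control in blue. Bars are group means and open circles mark a group in which no array detected the probe; no gene's groups overlap, and the widest gap is that of Zbtb16.

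The promoters of a few of these genes are shown because metals, hormones and the clock act on known short motifs. They were chosen after the search, from genes with large differences, to show where a motif lay. Both listed windows of Cdkn1a and the first of Gdf15 held none of the motifs. Each line gives the 250 bases before the RefSeq transcription start in assembly GRCm38.p6, read 5′ to 3′ on the gene's strand, with capitals at any motif found. The Mt1 window is chr8:94178839-94179088 on the plus strand, that of Nr4a3 chr4:48045055-48045304 on the plus strand, that of Gdf15 chr8:70632096-70632345 on the minus strand (its second listed start) and that of Spp1 chr5:104434861-104435110 on the plus strand (its first listed start).
Mt1: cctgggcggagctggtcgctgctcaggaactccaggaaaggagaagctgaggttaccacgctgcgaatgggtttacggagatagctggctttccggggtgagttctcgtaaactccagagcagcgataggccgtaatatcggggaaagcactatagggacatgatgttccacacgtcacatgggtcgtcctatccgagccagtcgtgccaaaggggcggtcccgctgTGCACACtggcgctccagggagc
Nr4a3: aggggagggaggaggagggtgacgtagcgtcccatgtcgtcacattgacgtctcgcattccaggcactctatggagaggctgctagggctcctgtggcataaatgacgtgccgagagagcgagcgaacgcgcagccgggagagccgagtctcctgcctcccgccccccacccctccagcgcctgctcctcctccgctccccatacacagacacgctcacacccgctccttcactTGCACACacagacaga
Gdf15: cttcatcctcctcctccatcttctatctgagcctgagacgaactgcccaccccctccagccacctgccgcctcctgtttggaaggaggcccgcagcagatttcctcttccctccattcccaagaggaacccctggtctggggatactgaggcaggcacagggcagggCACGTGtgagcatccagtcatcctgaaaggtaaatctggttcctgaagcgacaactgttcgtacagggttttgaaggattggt
Spp1: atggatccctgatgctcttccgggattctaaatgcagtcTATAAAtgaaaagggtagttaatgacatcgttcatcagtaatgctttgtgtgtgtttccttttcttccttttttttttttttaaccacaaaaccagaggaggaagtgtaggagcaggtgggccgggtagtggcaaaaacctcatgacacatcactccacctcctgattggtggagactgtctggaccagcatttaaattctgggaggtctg
Motifs were searched on both strands in the first listed window of each called gene that has one, 47 lower and 27 higher genes, beside 3568 tested genes and 27025 promoters in all. The metal response core TGCACNC, in capitals at Mt1 and Nr4a3, lay in 7 of the 47 promoters of lower genes (14.9%) and 3 of the 27 of higher genes (11.1%), against 10.1% of tested genes and 10.2% of all promoters. The E-box CACGTG, in capitals at Gdf15, lay in 3 lower (6.38%) and 1 higher (3.70%), against 7.93% of tested genes and 6.05% of all. The hexamer TATAAA is the sequence of the TATA box and not a motif of metals, hormones or the clock. It lay in 4 lower (8.51%) and 3 higher (11.1%), against 6.61% and 13.0%. Its match in capitals at Spp1 lies near the upstream end of the window, far from the transcription start. Whether that match acts as a TATA box was not tested. The glucocorticoid receptor hexamer TGTTCT, which is also a part of the full glucocorticoid response element, lay in 3 lower (6.38%) and 4 higher (14.8%), against 10% and 16.2%. The full palindromic element lay in no window of either direction, against 0% of tested genes and 0.0037% of all promoters. So rare an element would hardly be met in this many windows, and its absence says nothing about these genes. The metal core's other form, TGCGCNC, lay in 11 lower (23.4%) and 1 higher (3.70%), against 22.8% of tested genes and 12.6% of all promoters, and the cAMP response element TGACGTCA in no window of either direction, against 2.83% and 1.62%. The Gdf15 window shown is not the one counted, since its E-box lies before the second start. These matches describe the letters of the windows only.

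The falls included several genes that glucocorticoids are known to induce. Of 17 tested genes of a glucocorticoid-responsive list, 5 fell and none rose (Zbtb16, Cdkn1a, Mt1, Rhobtb1 and Pfkfb2), against 1.98% of the 4445 named genes called at their brightest probe, 1.26% lower and 0.72% higher. The median of the list was -0.28, against -0.01 over all named genes, and 14 of the 17 lay below 0. These 5 genes were known to be lower in these data when the list was written, so the count is no independent evidence of its direction. Pfkfb2, the enzyme that makes the activator of glycolysis fructose 2,6-bisphosphate in heart, read 9.77, 9.45 and 9.44 in N-line, against 10.34, 10.28 and 10.32 in control (difference -0.76, SE 0.11, adjusted p 0.0129), and lost its call without N-line replicate 4 or control replicate 1. Among the members that were not called, Cebpb differed by -0.46 (adjusted p 0.0907), the kinase Sgk1 by -0.28 (adjusted p 0.196), the triglyceride lipase Pnpla2 by -0.23 (adjusted p 0.286) and Errfi1 by -0.02 (adjusted p 0.948). The receptor itself, Nr3c1, had 5.38, 5.78 and 5.98 in N-line hearts, against 5.77, 5.36 and 5.74 in control hearts, which overlap (difference 0.09, adjusted p 0.864).

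In related stress lists few members were called, and only a part of each list was measured. Tested were 7 of 14 metallothionein and zinc transport genes, without Mt2, and 5 of 21 p53 targets. Of the integrated stress response 3 of 22 genes were tested, and of endoplasmic reticulum stress 3 of 18. Of 7 metallothionein and zinc transport genes only Mt1 was called, and Mt3, Mt4, the metal-sensing factor Mtf1 and the zinc transporters Slc39a1, Slc39a10 and Slc39a14 differed by at most 0.07 in size. Among 5 tested p53 targets, Cdkn1a and Gdf15 fell, while Ccng1 (-0.04), Zmat3 (-0.11) and Tnfrsf10b (0.00) were not called. Gdf15 was also the only call among 3 genes of the integrated stress response, beside the tRNA synthetases Aars (-0.08) and Sars (-0.17), and among 12 growth factors and receptors of hypertrophy, where Igfbp5 (0.09), Igfbp4 (-0.09), Pdgfa (-0.07) and Igfbp6 (-0.10) were the brightest uncalled members. Nr4a3 was the only call among 10 immediate early genes, whose brightest uncalled members Klf6, Klf2, Klf4 and Fosl2 differed by -0.02, 0.34, 0.01 and 0.41. None of 11 heat shock genes was called, although 9 lay below 0 (median -0.08). Hsp90aa1 came closest, with 10.27, 10.41 and 10.52 in N-line and 10.85, 10.86 and 10.79 in control (difference -0.43, SE 0.09, adjusted p 0.0576), next to Hspb1 (-0.33, adjusted p 0.0834), Hspa8 (-0.17) and Hsp90ab1 (-0.16). Of 11 oxidative stress genes none was called at its brightest probe. Srxn1, which repairs oxidised peroxiredoxins, differed by -0.45 there (adjusted p 0.136), and a dimmer probe of it, undetected in N-line, was at least 1.31-fold lower (adjusted p 0.0329, and 0.0516 with median scaling). That dimmer probe passed the detection filter only through the control arrays. It was not tested without any 1 of them and not called without any 1 N-line array. The remaining probe of Srxn1 was not called (-0.54, adjusted p 0.101). No call was made among the 3 endoplasmic reticulum stress genes Xbp1 (-0.02), Hspa5 (-0.08) and Sel1l (-0.03).

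Clock genes were measured in small number and none of 6 was called. Clock itself had 9.86, 9.92 and 9.77 in N-line, against 9.96, 10.04 and 9.996 in control, a difference of -0.15 (adjusted p 0.462), and Rora, Csnk1d and Csnk1e differed by -0.20, -0.17 and 0.04. Outside the list, and named after their values were seen, the clock-controlled deadenylase gene Noct and Cipc, a repressor of Clock, were lower in N-line. Noct read 10.29, 10.25 and 10.31 in N-line, against 11.15, 10.77 and 11.09 in control (difference -0.73, adjusted p 0.0200), and Cipc differed by -0.58 (adjusted p 0.0130). Noct was called in 1 of the 6 fits with an array left out and Cipc in 3, and the hours at which the hearts were taken are not given in the labels.

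The lists for the working heart muscle held 1 call. Of 10 contraction and calcium handling genes none was called and the differences ran from -0.16 to 0.21. The main adult myosin heavy chain of mouse heart, Myh6, had 13.22, 13.25 and 13.01 in N-line, against 13.06, 13.10 and 12.95 in control (difference 0.12, adjusted p 0.650). Myh7, the slow chain that is re-expressed in stressed mouse ventricle, had 10.65, 10.65 and 10.52 in N-line, against 10.70, 10.59 and 11.00 in control (difference -0.16, adjusted p 0.611). The calcium pump Atp2a2, Mybpc3 and the sodium-calcium exchanger Slc8a1 differed by 0.06, -0.03 and 0.04. Of 16 hypertrophy and fetal markers listed, only 6 had a named probe on the array, and Nppa, Nppb and Acta1 were not among them. Of these 6 tested markers 1 fell, Xirp2, an actin-binding protein of the intercalated disc. Xirp2 had 7.173, 6.91 and 7.37 in N-line, against 7.85, 7.97 and 7.75 in control (difference -0.70, SE 0.13, adjusted p 0.0329). It was called in none of the fits with an array left out. Acta2 (-0.08), Mef2c (0.33, adjusted p 0.0999) and Gata4 (0.03) were not called.

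Genes of calcineurin and CaMKII signalling gave no call among 14, with Ppp3cb at 0.06, Akt2 at -0.10 and Ppp3ca at 0.21. Nfatc1, which calcineurin activates, differed by -0.54 at its brightest probe (adjusted p 0.0757). Apart from Gja5, no call was made among the 9 tested channels and connexins of the list, which does not hold the called potassium channel Kcnk2. Its uncalled members included Kcnq1 (0.22), Kcnk3 (-0.05), Gjc1 (0.21) and Kcna5 (0.01). Of the 8 listed transporters of bicarbonate, chloride and sodium none was called, but the list does not hold Slc4a8, which was lower in N-line. Its members included Atp1b1 at -0.03, Slc4a3 at -0.05, Slc4a2 at -0.08 and Car3 at 0.29 with a wide spread (SE 0.73).

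Energy metabolism differed little. Of 17 glycolytic genes only Pfkfb2 was called, and the bright enzymes Gapdh (-0.08), Eno3 (-0.01), Pfkm (-0.01) and Aldoa (-0.01) were within 0.1 of 0. None of 9 fatty acid genes (Fabp3 -0.05, Hadhb -0.13, Lpl -0.04, Mlycd -0.02), of 11 tricarboxylic acid cycle genes (Sdhc 0.03, Mdh2 0.00, Sdhb 0.00) or of 29 genes of oxidative phosphorylation (Atp5h -0.06, Ndufa4 0.03, Ndufb8 -0.06, Atp5g1 -0.07) passed the test. Of 63 ribosomal protein genes none was called. Their median was 0.07 and 54 lay above 0, but with the arrays scaled to a common median in place of quantile normalization the median was -0.04. Autophagy (7 genes) and cell cycle genes (13 genes) gave no call, with Ctsb at 0.01, Lamp2 at -0.01 and Sqstm1 at -0.28 (adjusted p 0.195) in the first list, and Cenpa at -0.05, Ccnd1 at -0.32 (adjusted p 0.293) and Pcna at 0.14 in the second. Of 6 interferon-induced genes none was called (Irf1 0.02, Irf9 -0.03, Igtp 0.37 with adjusted p 0.128). Among 10 apoptosis genes the only calls were the 3 Bcl2a1 copies, while Tnfrsf1a (0.01), Birc2 (-0.13), Bcl2 (-0.16) and Casp8 (0.14) were not called.

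The extracellular matrix list held the highest rise of a named gene and few others. Of 20 tested members Spp1 rose and Timp3, an inhibitor of matrix metalloproteinases, fell. The bright probe of Timp3 read 11.45, 11.48 and 11.45 in N-line, against 12.06, 12.02 and 11.81 in control (difference -0.50, SE 0.09, adjusted p 0.0355), and a dimmer probe fell by 0.69 (SE 0.14, adjusted p 0.0459), each called in 1 of the 6 fits with an array left out. Structural members did not pass the test, with Dcn at 0.03, Eln at -0.12, Col6a1 at 0.03, Col3a1 at 0.14 and Col1a1 at 0.13. The 10 fibroblast, 6 endothelial, 7 mesothelial and 5 red blood cell markers tested gave no call, and neither did the few of smooth muscle, adipocytes, skeletal muscle, nerve, thymus, and lung and liver. Among the red cell genes Dmtn, a membrane skeleton protein, came closest (-0.52, SE 0.11, adjusted p 0.0526), while the haemoglobin genes Hba-a1, Hbb-b2 and Hbb-b1 differed by 0.08, 0.03 and 0.11.

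**Figure D3:**
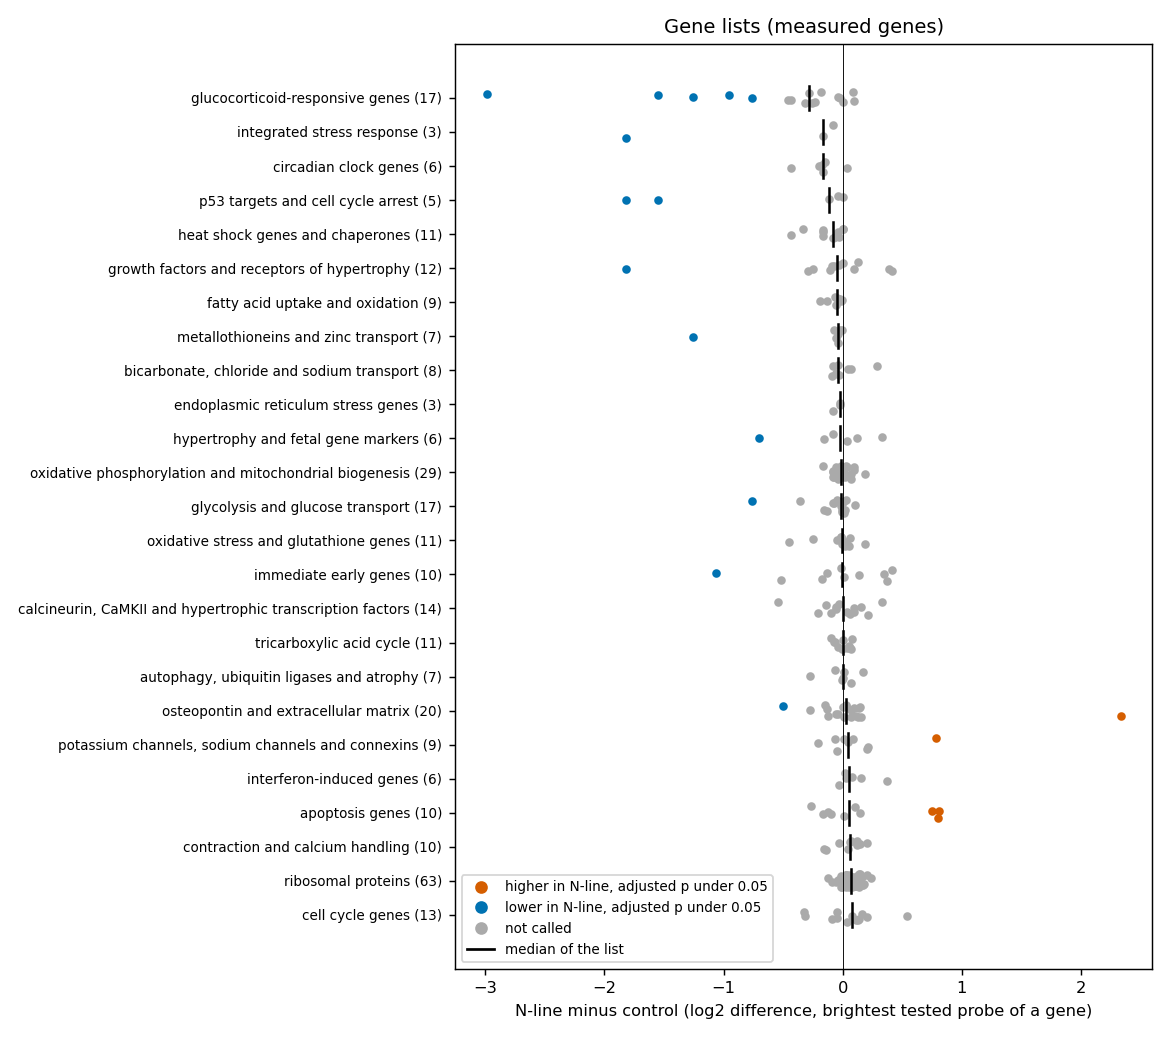
Difference of N-line minus control (log2, horizontal axis) of each measured gene, at its brightest tested probe, by gene list (vertical axis, number of tested genes in brackets). Orange points were called higher, blue points lower, grey points not called, and the black bar is the median of the list; most lists cluster near 0 with single called members, such as Spp1 at 2.33 and Zbtb16 at -2.99.

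Other called genes, grouped by role after their values were seen, are described without a test of the group. Among the lower genes, several encode proteins that act on the actin skeleton. Abra, an actin-binding protein of striated muscle, read 8.93, 8.88 and 8.91 in N-line, against 9.68, 9.64 and 9.51 in control (difference -0.70, SE 0.08, adjusted p 0.00793). The actin regulator Enah fell by 0.64, the kinases Pak2 by 0.50, Rock2 by 0.48 and Slk by 0.40. A second probe of Enah differed by -0.44 (adjusted p 0.0999) and one of Pak2 by -0.20 (adjusted p 0.502, groups overlapping), and neither was called. With the arrays scaled to a common median, Rock2 and Slk lost their calls (adjusted p 0.128 and 0.0931). Abra was called whichever array was left out, Enah in 2 of the 6 fits, and Pak2, Rock2 and Slk in none.

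Signalling enzymes and adaptors were called in both directions. The scaffold Ppfia1 fell at both of its probes, by 0.90 (adjusted p 0.00793) and 0.65 (adjusted p 0.0164), and the phosphatase Ppm1l by 0.60 and 0.57. The phosphatases Dusp18 (-0.80) and Dusp3 (-0.60), the alkaline phosphatase Alpl (-0.80, adjusted p 0.00748), the kinase Sik2 (-0.55) and Gch1 (-0.43), which makes the nitric oxide synthase cofactor tetrahydrobiopterin, were lower too. The other probe of Sik2 lay on the opposite side of 0 (0.16, adjusted p 0.695), and that of Gch1 was not called (-0.28, adjusted p 0.220). Alpl and the first probe of Ppfia1 were called in all 6 fits with an array left out, and Ppm1l, Dusp3, Sik2 and Gch1 in none. On the higher side, Gucy1a1, a subunit of the nitric oxide receptor guanylate cyclase, read 11.62, 11.66 and 11.63 in N-line, against 11.28, 11.13 and 11.22 in control (difference 0.43, adjusted p 0.0425). A dimmer probe of Gucy1a1 overlapped between the groups, with 6.85, 6.92 and 6.99 in N-line, against 6.98, 6.74 and 6.92 in control (difference 0.04, adjusted p 0.909). The kinase Rps6ka2 rose by 0.46 and the small GTPase Rit1 by 0.46, and none of these 3 was called with any 1 array left out or with median scaling (adjusted p 0.303 for Gucy1a1, 0.0794 for Rps6ka2 and 0.250 for Rit1).

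Vessel growth and cell surface genes went both ways. Nrp1, a coreceptor of VEGF and semaphorins, rose at both probes, by 0.59 (adjusted p 0.0189) and 0.56 (adjusted p 0.0247), with 12.53, 12.57 and 12.52 on the brighter probe in N-line, against 11.85, 11.93 and 12.08 in control. The lymphatic growth factor Vegfc read 8.74, 8.61 and 8.82 in N-line, against 8.27, 8.21 and 8.15 in control (difference 0.51, adjusted p 0.0313). Epha4 rose by 0.50. Plxna2, a plexin receptor of semaphorins, was lower, with 9.52, 9.52 and 9.50 in N-line, against 10.08, 10.11 and 10.15 in control (difference -0.60, SE 0.08, adjusted p 0.00974), and so were the endotoxin receptor Tlr4 (-0.60) and the adhesion molecule Ceacam1 (-0.54). Nrp1, Vegfc, Tlr4 and Ceacam1 were each called in 1 of the 6 fits with an array left out, Plxna2 in 5 and Epha4 in none. A second probe of Tlr4 was not called (-0.33, adjusted p 0.106). With median scaling both probes of Nrp1 (adjusted p 0.0705 and 0.0563), Vegfc (0.117), Epha4 (0.0973), Tlr4 (0.0563) and Ceacam1 (0.0656) lost their calls. Of the 6 endothelial markers, Emcn (0.22), Robo4 (-0.29) and Egfl7 (0.25) did not pass the test, and the summed signal of the markers was 19672 to 19952 in N-line and 19697 to 20699 in control. Their part in these differences was not tested.

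K-line hearts were set beside the N-line hearts in a fit of all 9 arrays, in which both lines share the 3 controls. The K-line arrays lie on the other slide, so slide and line cannot be told apart. They also go against their male label, since all 3 detected Xist and none detected Kdm5d or Ddx3y. In this fit Spp1 averaged 7.11 ± 0.60 in N-line, 11.67 ± 0.25 in K-line and 4.71 ± 0.07 in control, where no array detected it (SD, n = 3 each). Bcl2a1b averaged 7.62 ± 0.07 in N-line, 9.90 ± 0.44 in K-line and 6.87 ± 0.08 in control, and it was not called for N-line here (difference 0.75, adjusted p 0.0818). The other copies were, with 0.83 for Bcl2a1a (adjusted p 0.0274) and 0.81 for Bcl2a1d (adjusted p 0.0432).

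Gdf15 averaged 5.11 ± 0.16 in N-line, 10.93 ± 1.15 in K-line and 6.98 ± 0.16 in control. With the shared spread of this fit its N-line difference of -1.87 was no longer called (adjusted p 0.0680). Gja5 averaged 9.91 ± 0.15 in N-line, 8.40 ± 0.14 in K-line and 9.13 ± 0.22 in control, and Zfp579 differed from control by 0.65 in N-line (adjusted p 0.0539) and by -0.73 in K-line (adjusted p 0.00351). Zbtb16 averaged 6.32 ± 0.24 in N-line, 8.35 ± 0.53 in K-line and 9.30 ± 0.09 in control. It was called lower in K-line too (-0.95, adjusted p 0.0105), as were Nr4a3 (-1.04), Dct (-0.83), Rhobtb1 (-0.84), Rfx2 (-1.07) and Rin1 (-0.70). Dhh (-1.42), Plin4 (-0.60), Lin7a (-0.79) and Slc4a8 (-0.65) were likewise called lower in K-line, against the same controls. Of the 3 K-line arrays, 1 detected Nr4a3, Lin7a and Slc4a8, and 2 detected Dct, so the sizes of these 4 falls were set partly by background. Some rises were also called in both lines in this fit. In K-line they were Kcnk2 (0.86, adjusted p 0.00101), Vcam1 (0.70, adjusted p 0.00113) and Pde4b (0.45, adjusted p 0.0383). Klra10 was called higher in K-line too (0.80, adjusted p 0.00278), against controls at background. Nabp1 was called for neither line in this fit (adjusted p 0.0569 for N-line and 0.274 for K-line). Cdkn1a and Mt1 were called for N-line (-1.54 and -1.25, adjusted p 1.58e-04 and 0.00449) and not for K-line (-0.29 and 0.18, adjusted p 0.0998 and 0.417), though the difference between the lines was not tested. Sphk1 averaged 6.72 ± 0.18 in N-line, 8.02 ± 0.07 in K-line and 7.58 ± 0.04 in control, a difference of -0.85 in N-line (adjusted p 0.00469) and of 0.44 in K-line (adjusted p 0.0115).

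**Figure D4:**
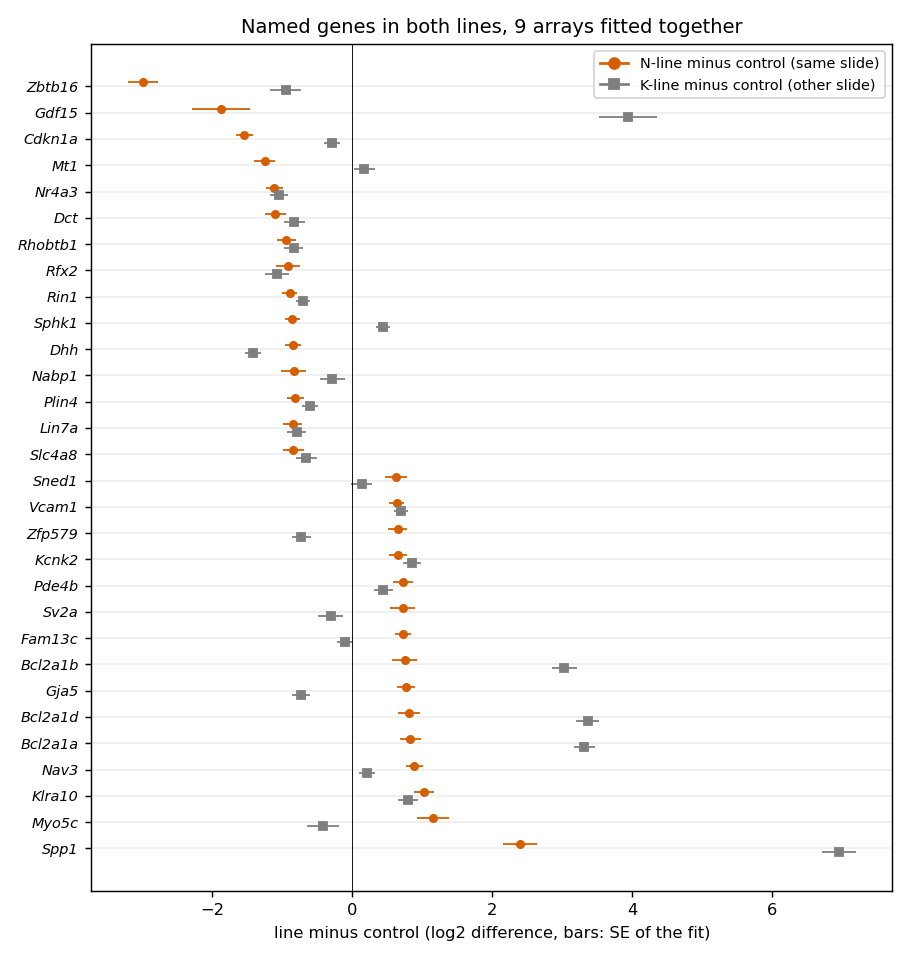
Difference from control (log2, horizontal axis) of the 30 named genes (vertical axis) in N-line (orange circles) and K-line (grey squares), from the fit of all 9 arrays; bars are the SE of the fit. Both lines share the same 3 control arrays and K-line is on another slide; Gdf15 is at -1.87 and 3.94, and Spp1 is at 2.40 and 6.96, measured against controls at background and so no exact sizes.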

How the data were processed

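Per the file headers, the authors exported with BeadStudio 2.3.47, a version also in the submitters' processing notes, the mean bead intensity of each probe on each array without normalization, with its detection score, bead number and bead spread. The detection score, as deposited, is a fraction between 0 and 1. The bead spread is deposited as a signal, the SD between beads. The authors' deposited value table holds intensity with values below 0, and no source used here gives its normalization. The deposited bead number is a count per probe. The 6 intensity columns were corrected with limma's normexp (limma 3.58.1, R 4.3.3) from 1 minus the detection score, with an offset of 16, quantile normalized and log2-transformed, and 55 control spots were left out. Probes with a score above 0.95 on at least 3 of the 6 arrays were tested with lmFit and eBayes, two-sided, with Benjamini-Hochberg adjustment over 18713 probes. The step was checked on simulated data. "At least N-fold" sets the bright group's mean against the dim group's, after raising each dim array to its lowest detected signal where the probe lay below that. The number of arrays limits precision.

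Numbers in the probe codes were read as mouse gene numbers, which is an inference: 82.6% of 11857 numbers are in the RefSeq table of GRCm38.p6, against at most 46.0% after shifting them by 1 to 20. Of the tested probes 4993 (26.7%) were named, for 4445 genes, 9 probes of the array by accession. No array build is given, so no probe coordinates are printed. The transgene's level is not reported here. Named genes are the 15 largest rises and 15 largest falls with an adjusted p under 0.05, non-overlapping groups, a higher group detected on its 3 arrays and no predicted symbol, at the brightest called probe, plus for each gene list every called member and up to 4 brightest uncalled ones. Members and lists were chosen with earlier results of these data known. Alternatives changed background correction, offset, normalization, probe filter, variance model, replicate block, arrays fitted and the source of the values.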

Additional observations from a re-analysis of the deposited data

How the results depend on the processing

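All counts below are probes called of those tested, with higher and lower in brackets. The 354 calls (141 and 213) became 192 (72 and 120) with all 9 arrays fitted together, 162 (61 and 101) from the authors' value table, 629 (251 and 378) with an intensity trend and robust variances, 534 (211 and 323) without background correction, 222 (82 and 140) with no filter on dim probes, 546 (214 and 332) with an offset of 50, 270 (95 and 175) with median scaling and 345 (137 and 208) for probes detected on all 6 arrays. Leaving out 1 array in turn gave 59 to 170 calls, 16 to 70 higher and 43 to 101 lower, with fewer samples in each fit. With the labels' replicate number as a replicate block, 19 probes were called (3 and 16), and 4 of the 97 named called probes remained. N-line and control share the numbers 2 and 3, whose deviations from the group means correlated at 0.257 and 0.135, and 2 such pairs are too few to take the numbers as a pairing. Control replicate 1 and N-line replicate 4 have no partner, so the blocked contrast rests on those 2 pairs. That leaves little to measure the scatter, and the few calls of this fit do not speak for or against a pairing. Apart from the fits named, the cause of these moves was not tested. Wherever they were tested, none of the 97 named called probes changed sign under any alternative, and their lack of overlap left little room for it. Of these, 45 kept their call in the authors' table, 66 with median scaling, 88 with the offset of 50 and 56 with all 9 arrays. With the mean of all tested probes of a gene, 1 gene of oxidative stress and 1 of calcineurin signalling were called, against none at the brightest probe. Median scaling moved the median of the cardiomyocyte list to 0.00, of the tricarboxylic acid list to -0.10 and of oxidative phosphorylation to -0.11.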

Other observations

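Some genes varied far more within the groups than between them, and none of these was called. Control replicate 2 was the highest control in the 6 genes given below, but not in Chil4 (6.05, 5.59 and 4.91 in control) or 9930111J21Rik2 (6.32, 5.15 and 6.77 in control), which also met the criterion. The immunoglobulin genes Igkc and Ighm were high on 1 array of each group: Igkc read 10.26, 6.55 and 7.33 in N-line, against 5.80, 9.67 and 6.72 in control, and Ighm read 9.47, 6.51 and 6.88 in N-line, against 6.12, 8.998 and 6.19 in control. For Car3, Pck1 and Kng1 the highest N-line array was replicate 4, and for Igkc, Ighm and Retnla it was replicate 2. Car3, the carbonic anhydrase of fat and slow muscle, read 10.13, 9.40 and 11.19 in N-line, against 8.28, 11.52 and 10.04 in control. Pck1, the enzyme that starts glucose synthesis, was high on 1 array of each group, with 4.96, 4.93 and 7.598 in N-line, against 4.80, 7.18 and 5.17 in control, and the kininogen gene Kng1 read 5.001, 5.87 and 8.71 in N-line, against 5.41, 8.63 and 6.26 in control. Retnla, a secreted protein of alternatively activated macrophages, read 9.86, 8.33 and 9.41 in N-line, against 8.60, 9.37 and 8.18 in control.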
